A study of Mus musculus with 8 samples.

Results

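The neurotrophins Bdnf and Ntf3 and the receptors Ngfr, Ntrk2, Ntrk3 and Sort1 were read out in the prefrontal cortex of a mouse model of Fabry disease. The 6 genes were taken by their symbols on the array, where they had 13 probes among 55681 non-control probes. All 13 probes passed the signal filter, as did 34339 probes of 23638 gene names in all. The series compared male α-Gal A(-/0) mice, which carry a null mutation of the X-linked gene for the lysosomal enzyme α-galactosidase A (Gla), with male wildtype C57BL/6J mice. Each group held 4 mice aged 20 to 24 weeks, with 1 array (Agilent one-colour) per mouse. The α-Gal A(-/0) mice were on a C57BL/6 background, and the groups came from separate inbred colonies, so that genotype and colony cannot be told apart.

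Neurotrophins are secreted proteins that keep neurons alive and adjust their synapses. They are made as proneurotrophins, which proteases cut to the mature form. Mature BDNF acts mainly through the tyrosine kinase receptor TrkB (Ntrk2), and neurotrophin-3 (Ntf3) acts mainly through TrkC (Ntrk3). Both Trk genes also give truncated receptors that lack the kinase domain, and in the brain truncated TrkB is abundant in astrocytes. The p75 neurotrophin receptor (Ngfr), a member of the TNF receptor family, binds all neurotrophins, and together with sortilin (Sort1) it binds the uncut proforms. In the adult forebrain p75 is best known from the cholinergic neurons of the basal forebrain, whose axons reach the cortex.

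Each level is a log2 signal after quantile normalization, and each difference is α-Gal A(-/0) minus wildtype on that scale. A probe was called at a Benjamini-Hochberg adjusted p under 0.05 from limma, taken over all tested probes. Counts at an unadjusted p under 0.05 are a description only, since the share of all tested probes under that limit was not counted. Levels of different probes are not comparable, since probes differ in how brightly they hybridize.

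The target of each probe decides which receptor form a value stands for. The probe sequences that separate the forms are therefore given first, in the sense direction of the transcript and with mm9 positions from the array annotation, which names no exon or untranslated region. For Ngfr (chr11:95430211-95430270, minus strand) and for the full-length (chr13:59230936-59230995, plus strand) and truncated (chr13:59038046-59038105, plus strand) forms of Ntrk2, the first 30 of 60 bases are shown. The kinase probe of Ntrk3 (chr7:85392044-85392103, minus strand) and the probe of its truncated form (chr7:85447515-85447574, minus strand) are shown whole. Capitals in the kinase probe mark the 9 bases that encode the Asp-Phe-Gly motif of the kinase, and capitals in the truncated form's probe mark the stop codon at which that shorter receptor ends.
Ngfr: tccagctggcgactatgagatccagacctc
Ntrk2 full-length form: tcaattgatacctatgtgcacgtgtgcaga
Ntrk2 truncated form: ttctcaccagcttaattttagccgatgcat
Ntrk3 full-length form: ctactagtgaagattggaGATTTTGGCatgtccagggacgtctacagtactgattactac
Ntrk3 truncated form: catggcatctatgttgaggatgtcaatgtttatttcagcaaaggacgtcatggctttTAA

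The 8 arrays shared 1 slide and 1 scan. Between 29943 and 36139 probes were well above background on α-Gal A(-/0) arrays, and between 35648 and 38240 on wildtype arrays. The lowest count was that of α-Gal A(-/0) replicate 2, and the other α-Gal A(-/0) arrays had 35218 to 36139. The Gla probe did not separate the genotypes (17.13 to 17.18 in α-Gal A(-/0) mice, against 17.01 to 17.16 in wildtype mice, difference 0.06, adjusted p = 0.696). Whether that probe lies in the disrupted part of Gla is not given in the sources used here, so it does not check the labels. All 15 cortical layer and prefrontal markers and all 12 excitatory neuron markers were measured.

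Ngfr stood apart from the other 5 genes in the size of its difference, and no probe of the 6 genes was called. Of the 13 probes 0 were called, where 0.877% of all tested probes were. The count at an unadjusted p under 0.05 was 1, the Ngfr probe. The same probe alone met the 2 limits named in the study's methods, a p no higher than 0.01 before adjustment and a fold change no smaller than 1.2, here with limma's p. Of all tested probes 3.43% met them, 1.15% as higher in α-Gal A(-/0) mice. It was also the only one of the 13 whose genotypes did not overlap, against 7.94% of all tested probes (3.18% as higher). A count of 1 in 13 is near the share of 7.94%, so it does not set the group apart. The other 12 differences lay between -0.24 and 0.13, with adjusted p from 0.627 to 0.963 and exact two-sided permutation p from 0.2 to 0.857. The median absolute difference of the 13 probes was 0.06, and that of all tested probes was 0.09. Ngfr also appears in a network plot that the study made from these same arrays, so its count is not independent evidence of its direction.

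**Figure D1:**
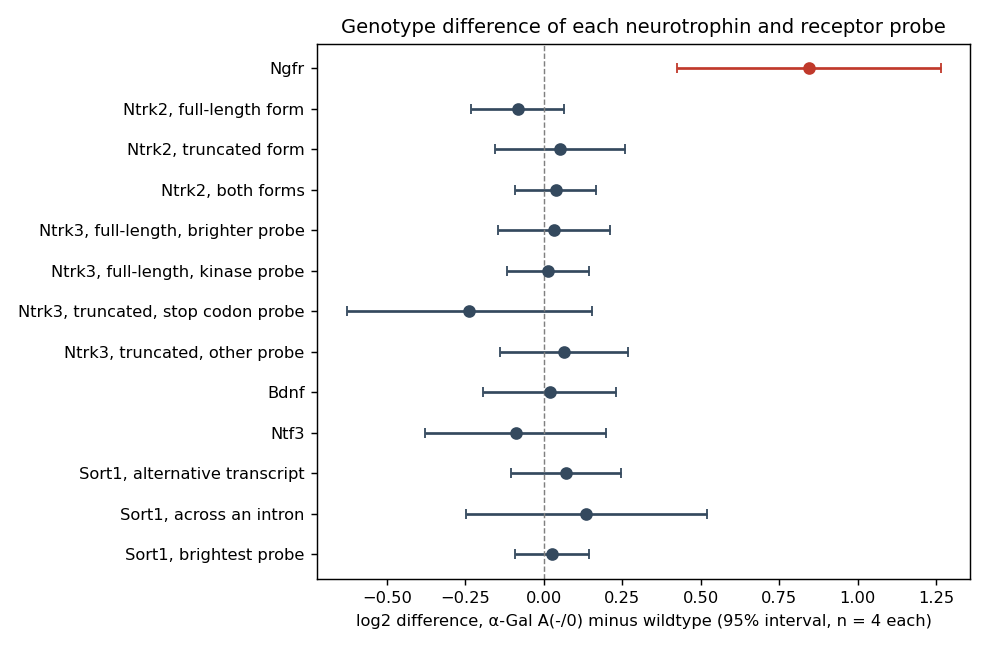
Difference in log2 signal, α-Gal A(-/0) minus wildtype, of each of the 13 probes, with its 95% interval from limma (n = 4 mice each). The interval of Ngfr (0.42 to 1.26) lies above 0, and those of the other 12 probes include 0.

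Ngfr is read by 1 probe with 10 spots per array. Its signal was 7.90, 8.09, 7.88 and 7.53 in α-Gal A(-/0) replicates 1 to 4, against 6.87, 7.52, 6.84 and 6.79 in wildtype replicates 1 to 4. Replicates 1 to 3 of the α-Gal A(-/0) group were clearly above every wildtype mouse, whereas α-Gal A(-/0) replicate 4 and wildtype replicate 2 were nearly level. Means were 7.85 ± 0.23 in α-Gal A(-/0) mice, against 7.01 ± 0.34 in wildtype mice (SD, n = 4 each). The difference was 0.84 (SE 0.18), a fold change of 1.80 with a 95% interval of 1.34 to 2.40. Its p was 0.00162 and its adjusted p was 0.108 in limma, so it did not pass the threshold. The exact two-sided permutation p was 0.0286, the smallest that 4 against 4 arrays can give. In a piece of cortex, more cells that carry a transcript and more transcript per cell cannot be told apart.

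The spread between mice exceeded that between spots. The SD over the 10 Ngfr spots of an array was between 0.08 and 0.16, and 3 spots were marked by the scanner software as outliers of their probe. Without these 3 spots the difference was 0.84 and the adjusted p was 0.100, a choice made after the data were seen. Without wildtype replicate 2 the difference was 1.02 and the adjusted p was 0.0229. Without α-Gal A(-/0) replicate 2, the array with the fewest probes well above background, the difference was 0.76 and the adjusted p was 0.200. Slide rows were unevenly filled, with α-Gal A(-/0) mice holding 1 place in row 1 and 3 in row 2, and wildtype mice holding 3 and 1. The difference was 0.83 within row 1 and 1.04 within row 2, and 0.93 with slide row as a block (adjusted p = 0.230).

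Both neurotrophin ligands of the group overlapped between genotypes. Bdnf, the activity-regulated ligand of TrkB, had 9.44, 9.63, 9.52 and 9.68 in α-Gal A(-/0) mice, against 9.75, 9.47, 9.40 and 9.58 in wildtype mice. The highest and the lowest Bdnf level were both in wildtype mice. The difference was 0.02 (SE 0.09, adjusted p = 0.963), with a 95% interval of the fold change of 0.874 to 1.17. The Bdnf probe lists several Bdnf transcripts, so the values do not separate its promoters.

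Ntf3, the ligand of TrkC, had 8.18, 7.65, 7.90 and 8.10 in α-Gal A(-/0) mice, against 8.04, 7.98, 8.24 and 7.93 in wildtype mice. The lowest value was that of α-Gal A(-/0) replicate 2, and the other 7 mice lay between 7.90 and 8.24. The difference was -0.09 (SE 0.13, adjusted p = 0.822), with a 95% interval of the fold change of 0.769 to 1.15.

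**Figure D2:**
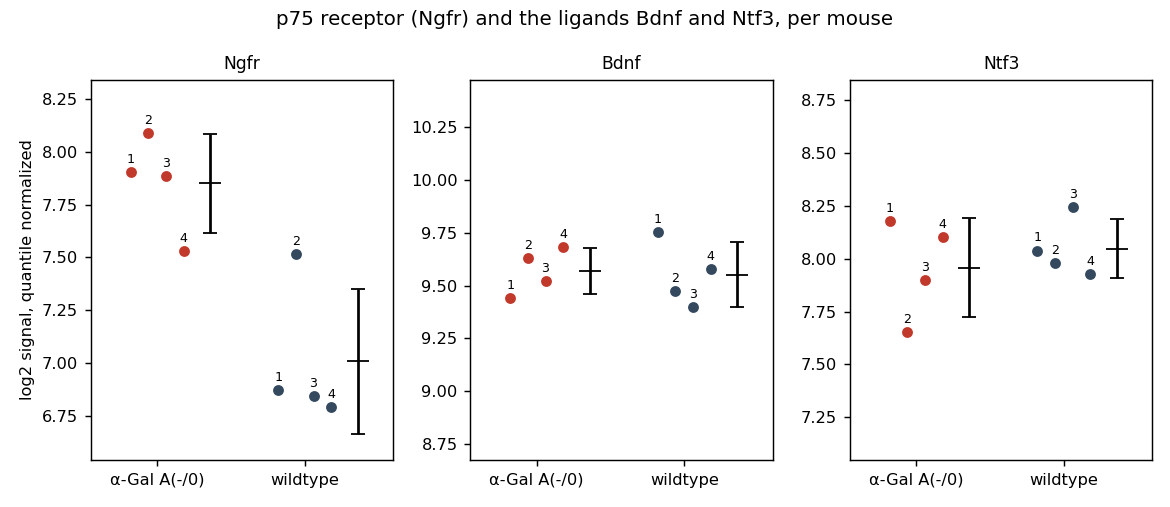
Log2 signal of Ngfr, Bdnf and Ntf3 in each mouse, numbered by replicate, with α-Gal A(-/0) mice on the left and wildtype mice on the right. Bars show mean ± SD (n = 4 each), and the panels span equal ranges of log2 signal. The genotypes separate for Ngfr only, where α-Gal A(-/0) replicate 4 (7.53) and wildtype replicate 2 (7.52) nearly meet.

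TrkB was measured by a probe for the full-length form, a probe for the truncated form and a probe that lists transcripts of both. The full-length probe had 12.98, 13.08, 13.01 and 12.87 in α-Gal A(-/0) mice, against 13.10, 13.08, 13.12 and 12.98 in wildtype mice. The truncated probe had 11.16, 11.28, 11.37 and 11.58 in α-Gal A(-/0) mice, against 11.28, 11.26, 11.28 and 11.37 in wildtype mice. In α-Gal A(-/0) replicate 4 the full-length probe was at its lowest of the 8 mice and the truncated probe at its highest. The probe of both forms ranged from 12.94 to 13.06 in α-Gal A(-/0) mice, against 12.90 to 13.03 in wildtype mice. The differences were -0.08 (adjusted p = 0.653) for the full-length probe, 0.05 (adjusted p = 0.868) for the truncated probe and 0.04 (adjusted p = 0.839) for the probe of both forms. The 95% intervals of the fold changes were 0.851 to 1.05, 0.897 to 1.197 and 0.939 to 1.12 in that order.

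The balance between TrkB forms was compared as the full-length minus the truncated probe within each mouse, a measure chosen after the data were seen. It was 1.83, 1.80, 1.64 and 1.29 in α-Gal A(-/0) mice, against 1.82, 1.82, 1.85 and 1.61 in wildtype mice. Replicate 4 was the lowest of each group, and the groups overlapped. The genotypes differed by -0.13, less than the SD of 0.24 among the α-Gal A(-/0) mice (exact permutation p = 0.429, two-sided).

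TrkC had 2 probes for the full-length form and 2 for the truncated form. The kinase probe ranged from 10.82 to 10.91 in α-Gal A(-/0) mice, against 10.79 to 10.93 in wildtype mice, and the other full-length probe from 13.03 to 13.23 in α-Gal A(-/0) mice and from 12.99 to 13.27 in the wildtype group. Their differences were 0.01 and 0.03 (adjusted p = 0.957 and 0.904). These were the smallest differences among the 7 Trk probes, with fold-change intervals of 0.921 to 1.10 and 0.904 to 1.16.

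The truncated form of TrkC was read differently by its 2 probes in 1 mouse. The probe that ends in the stop codon had 12.34, 12.25, 12.26 and 11.53 in α-Gal A(-/0) mice, against 12.35, 12.42, 12.33 and 12.23 in wildtype mice. The other probe had 11.85, 11.96, 11.72 and 12.11 in α-Gal A(-/0) mice, against 11.93, 11.80, 11.84 and 11.81 in wildtype mice. In α-Gal A(-/0) replicate 4 the stop codon probe was thus the lowest of the 8 mice and its partner the highest. The differences were -0.24 (SE 0.17, adjusted p = 0.627) and 0.06 (SE 0.09, adjusted p = 0.818). Without α-Gal A(-/0) replicate 4 the difference of the stop codon probe was -0.05.

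**Figure D3:**
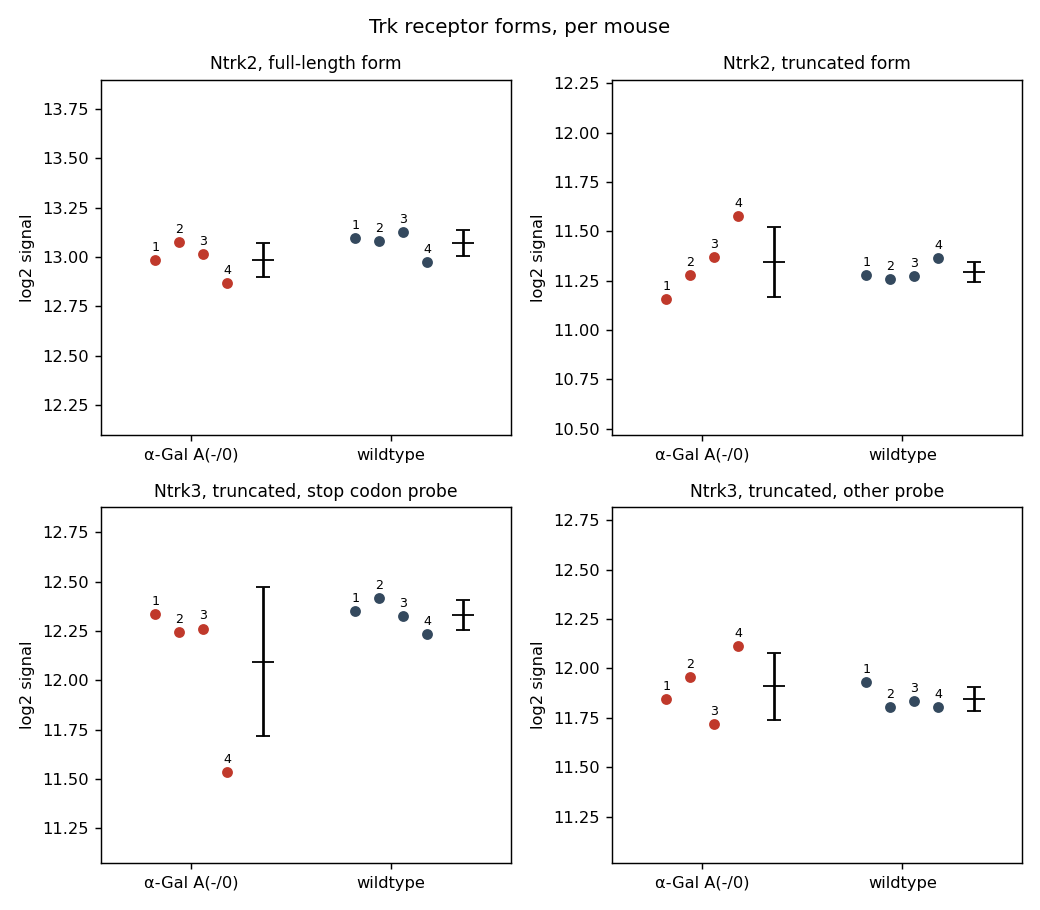
Log2 signal of the probes for full-length and truncated TrkB (Ntrk2) and for truncated TrkC (Ntrk3) in each mouse, numbered by replicate, with α-Gal A(-/0) mice on the left and wildtype mice on the right. Bars show mean ± SD (n = 4 each), and the panels span equal ranges. The point of α-Gal A(-/0) replicate 4 is low for the stop codon probe of Ntrk3 (11.53) and high for the other Ntrk3 probe (12.11).

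Sortilin, the sorting receptor that binds proneurotrophins and steers BDNF into the regulated secretory pathway, had 3 probes. The brightest ranged from 13.90 to 13.98 in α-Gal A(-/0) mice, against 13.86 to 13.96 in wildtype mice (difference 0.03, adjusted p = 0.880). The probe across an intron ranged from 7.18 to 7.87 in α-Gal A(-/0) mice, against 7.001 to 7.49 in wildtype mice (difference 0.13, adjusted p = 0.792). The probe that lists an alternative transcript ranged from 8.31 to 8.48 in α-Gal A(-/0) mice, against 8.20 to 8.47 in wildtype mice (difference 0.07, adjusted p = 0.756). Replicate 4 of the α-Gal A(-/0) group was the highest of the 8 mice for the brightest probe and the probe across an intron, and the genotypes overlapped for all 3. The fold-change interval of the brightest probe was 0.939 to 1.10.

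Among the other ligands and receptors of the family, 6 of 8 genes were tested and 1 rose, where 0.306% of all tested probes rose. The sorting receptors Sorcs1 and Sorcs2 differed by 0.12 and 0.11 (adjusted p = 0.704 and 0.582) and by -0.11 and -0.10 for their other probes, while Ntf5, the gene for neurotrophin-4, did not pass the signal filter. The median of the list was 0.12, beside -0.02 over all tested genes. It was 0.03 when the probes of a gene were averaged instead of the brightest being taken.

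Sorl1, which encodes the sortilin-related receptor SorLA, was the called gene of that list, and its 2 probes differed in opposite directions. The brighter probe (chr9:41776572-41776631, minus strand) had 13.93, 13.90, 13.86 and 13.96 in α-Gal A(-/0) mice, against 13.26, 13.14, 13.03 and 12.98 in wildtype mice. It was higher in every α-Gal A(-/0) mouse, by 0.81 (SE 0.07, adjusted p = 0.00127). The other probe (chr9:41772997-41773056, minus strand) had 12.41, 12.43, 12.37 and 12.47 in α-Gal A(-/0) mice, against 12.92, 12.69, 12.74 and 12.78 in wildtype mice. It was lower in every α-Gal A(-/0) mouse, with a difference of -0.36 (SE 0.06) and an adjusted p of 0.050 that lay just above the threshold. The study's own tables from these same arrays list Sorl1 under accessions that the annotation of these probes carries, so neither direction is independent evidence.

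Of the genes that process and release proneurotrophins, 13 of 17 were tested and 0 were called. The 2 with an unadjusted p under 0.05 were Hap1, whose product huntingtin-associated protein-1 takes part in BDNF transport, and Cpe, the carboxypeptidase E sorting receptor. Hap1 had 13.98, 14.17, 14.18 and 14.14 in α-Gal A(-/0) mice, against 13.56, 13.90, 13.58 and 13.68 in wildtype mice, without overlap (difference 0.44, adjusted p = 0.0863). It was the only 1 of the 13 without overlap, beside 7.94% of all tested probes. Cpe differed by -0.14 (adjusted p = 0.407), as did the convertase Pcsk6 (adjusted p = 0.496), and the other Cpe probes by -0.06 and 0.05. The median of the list was -0.01.

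Of the partners of p75, 19 of 20 were tested and 0 were called, 3 of them at an unadjusted p under 0.05. Ngfrap1, a p75-associated death executor also known as Bex3, differed by 0.22 (adjusted p = 0.292). The myelin ligand Mag differed by 0.20 (adjusted p = 0.358), and the RhoA-activated kinase Rock2 by -0.16 (adjusted p = 0.357). In all 11 were higher and 8 lower, with a median of 0.02.

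The adaptors and effectors of Trk receptors were all tested, and 0 of 32 were called, 4 at an unadjusted p under 0.05. The ubiquitin ligase Cbl, which takes activated receptors to degradation, had 9.11, 8.81, 9.24 and 8.79 in α-Gal A(-/0) mice, against 9.38, 9.46, 9.48 and 9.37 in wildtype mice. All 4 α-Gal A(-/0) mice were below all 4 wildtype mice, with a difference of -0.44 (adjusted p = 0.168). The exchange factor Sos2 differed by -0.20 (adjusted p = 0.334) and the GTPase Hras by 0.15 (adjusted p = 0.364), with -0.17 for its other probe. In this list 24 genes were lower and 8 higher, and the median of -0.05 lay beside -0.02 over all tested genes.

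Of the transcription factors and cofactors that act on Bdnf, 18 of 18 were tested and 0 were called, 1 at an unadjusted p under 0.05. That gene was Srf, serum response factor, at 0.26 for its brighter probe and -0.26 for the other (adjusted p = 0.313 and 0.295). The repressor Rest differed by -0.21 (adjusted p = 0.474), with 0.24 for its other probe, and Bhlhe40 by 0.13 (adjusted p = 0.498). In all 11 were higher and 7 lower, with a median of 0.04.

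Genes that BDNF or neuronal activity induces had higher levels more often than not, although Bdnf itself differed by 0.02. Of 28 such genes 26 were tested and 1 rose, where 0.306% of all tested probes rose. That gene was Egr2, a zinc finger transcription factor, at 9.52, 9.13, 9.09 and 8.96 in α-Gal A(-/0) mice against 7.80, 8.38, 8.25 and 7.81 in wildtype mice (difference 1.12, SE 0.17, adjusted p = 0.0256). Its call was lost without any 1 of α-Gal A(-/0) replicates 1, 2 and 3 or wildtype replicates 1, 3 and 4, with adjusted p from 0.0298 to 0.0869 over the 8 arrays left out in turn. The study had already listed Egr2 as higher on these same arrays, so its direction is not independent evidence. The related Egr4 differed by 0.42 (adjusted p = 0.112), and Fosb, Fos and Npas4 by 0.45, 0.83 and 0.74 (adjusted p = 0.323, 0.341 and 0.518). Lower by their brightest probes were Spry4, Rheb, Dusp4, Homer1, Nr4a2 and Pcsk1, by -0.16, -0.11, -0.08, -0.04, -0.04 and -0.03. In the list 20 genes were higher and 6 lower, with a median of 0.24 beside -0.02 over all tested genes. Their mean level per mouse was 10.00 to 10.42 in α-Gal A(-/0) mice, against 9.78 to 10.04 in wildtype mice, so the groups overlapped.

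Other neurotrophic factor families showed no call among 17 of 20 genes tested, 3 at an unadjusted p under 0.05. The receptor genes Lifr, Igf1r and Met differed by -0.17, -0.19 and -0.37 (adjusted p = 0.272, 0.287 and 0.341). The median was -0.06.

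Markers of basal forebrain cholinergic neurons, a cell type known for p75, were compared with Ngfr in the same mice. Of 7 markers 5 passed the signal filter, all 5 were higher by their difference and 0 were called, with a median difference of 0.63. The defining marker Gbx1 did not pass the filter. The mean level of the 5 tested markers was 8.65, 8.89, 8.51 and 6.98 in α-Gal A(-/0) mice, against 6.62, 8.38, 7.92 and 7.87 in wildtype mice. As for Ngfr, replicates 1 to 3 were the highest mice of the α-Gal A(-/0) group and replicate 2 the highest wildtype mouse. The orders differed in other mice. In α-Gal A(-/0) replicate 4 the markers were lower than in wildtype replicates 2 to 4. Its Ngfr (7.53) was nearly level with wildtype replicate 2 (7.52) and above the other wildtype mice. Wildtype replicate 1 had the lowest marker mean of all mice, while its Ngfr (6.87) was slightly above wildtype replicates 3 and 4 (6.84 and 6.79).

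Single cholinergic markers were likewise highest in α-Gal A(-/0) replicate 2. The transcription factor Lhx8 had 8.36, 8.49, 8.17 and 5.82 in α-Gal A(-/0) mice, against 5.14, 7.76, 7.11 and 7.07 in wildtype mice. Slc18a3, the vesicular acetylcholine transporter, had 8.54, 8.94, 8.27 and 7.002 in α-Gal A(-/0) mice, against 6.65, 8.26, 7.67 and 7.53 in wildtype mice. Chat, choline acetyltransferase, had 10.18, 10.49, 10.12 and 9.72 in α-Gal A(-/0) mice, against 9.67, 10.47, 10.08 and 9.73 in wildtype mice. For all 3 markers the lowest value was that of wildtype replicate 1. Their adjusted p were 0.654, 0.616 and 0.843, and the mice of each genotype were far apart.

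The striatal list followed a like order of mice. All 12 of its 12 markers were tested and higher, 0 were called, and the median was 0.58. Its mean level was 12.97, 13.13, 12.75 and 11.65 in α-Gal A(-/0) mice, against 11.37, 12.58, 12.12 and 12.14 in wildtype mice. The part of these cells and of the dissected area in the Ngfr difference was not tested.

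**Figure D4:**
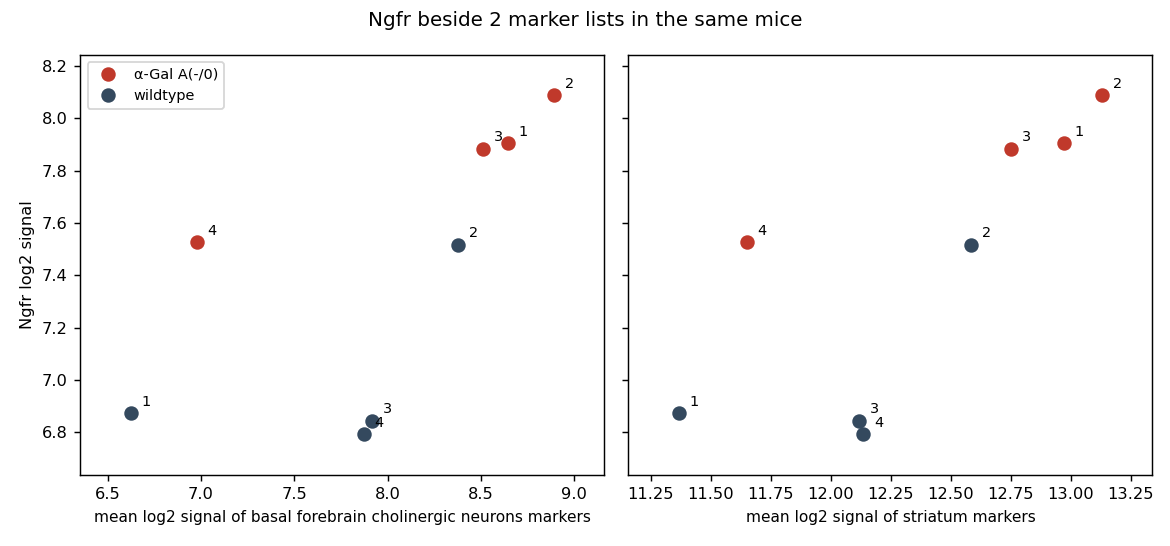
Log2 signal of Ngfr against the mean log2 signal of 5 basal forebrain cholinergic markers (left) and of 12 striatal markers (right), 1 point per mouse, numbered by replicate within each genotype. Between α-Gal A(-/0) replicate 4 and wildtype replicate 2 the Ngfr signals are nearly equal (7.53 and 7.52) and the cholinergic means are far apart (6.98 and 8.38).

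Other cells that can carry p75 gave less uniform values. For Schwann cells and peripheral nerve 5 of 7 markers were tested, and Scn7a did not pass the filter. The called gene was Egr2, which is also an activity-regulated gene and which the study had already listed as higher on these arrays. Mean levels were 9.19 to 9.42 in α-Gal A(-/0) mice, against 8.94 to 9.04 in wildtype mice, without overlap. Egr2 differed by 1.12 and the other tested markers by -0.05 to 0.28, with a list median of 0.02 (3 higher, 2 lower). Of the olfactory ensheathing glia markers 8 of 9 were tested, 7 were lower and 0 were called (11.13 to 11.48 in α-Gal A(-/0) mice, 11.26 to 11.68 in wildtype mice). Of the meningeal and perivascular fibroblast markers all 11 were tested and 0 were called (9.05 to 9.39 in α-Gal A(-/0) mice, 9.09 to 9.40 in wildtype mice). The part of these cells was not tested.

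Astrocytes, which carry truncated TrkB, had all 12 of 12 markers lower and 0 called, with mean levels of 12.47 to 12.54 in α-Gal A(-/0) mice, against 12.63 to 12.68 in wildtype mice, without overlap. Of the microglial markers 11 of 12 were tested, all 11 were lower and 2 fell, where 0.571% of all tested probes fell. Among them was Csf1r, the receptor for colony-stimulating factor 1, at -0.44 for its brightest probe (adjusted p = 0.0132) and at -0.36 and 0.59 for its others (adjusted p = 0.0648 and 0.650). The study had already reported Csf1r and Cx3cr1, another marker of the list, as lower on these same arrays. The direction of the list is therefore not independent evidence. The part of astrocytes and microglia in the values of the neurotrophin genes was not tested.

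The genes most like each member were ranked by Pearson's r over the 8 mice between brightest probes, as a description. For Ngfr 13 genes exceeded an r of 0.95, of which Josd2 (0.970) was the only one with a gene symbol among the first 5. For Ntrk2 the first was Msl1 (0.958), and for Ntrk3 the first with a symbol was Gkn1 (0.960). For Bdnf it was Wrap53 (0.955), for Ntf3 Fam154a (0.969) and for Sort1 Klhdc8b (0.978). With genotype means subtracted, Msl1 (0.969), Wrap53 (0.956) and Klhdc8b (0.978) were again among the first 5, and for Ngfr the only one with a gene symbol was Stox2 (0.979). With 8 mice and 23638 gene names such values are common, and between 2 and 13 genes exceeded 0.95 for each member before subtraction.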

How the data were processed

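RNA of prefrontal cortex was hybridized to Agilent SurePrint G3 mouse 8x60K one-colour arrays, 1 per mouse (4 α-Gal A(-/0), 4 wildtype). The authors deposited scanner text files, in which signal is a background-subtracted intensity per spot from Agilent Feature Extraction 10.7.3.1, not normalized between arrays; the annotation uses mm9. The deposited log2 value table was not used, because its columns do not follow the names of their samples. The intensities were set to log2, quantile normalized over all spots of the 8 arrays and averaged per probe. Controls and 81 probes that had a non-uniform spot were dropped, and a probe entered the test when it was well above background in all 4 mice of either genotype.

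Genotypes were compared with limma 3.58.1 in R 4.3.3 and Benjamini-Hochberg adjustment over 34339 probes, and single values with an exact permutation test over 70 relabelings. The study's methods used Welch's test on quantile normalized values, which was run as an alternative. The fitting step was tested on simulated data. Alternatives were another scaling, background correction, signal filter, variance model, block or weights, and leaving out each array. Replicates are separate mice, and their number limits the precision. The members and gene lists were chosen with earlier results of these data known. Named genes are all member probes, every called gene and up to 3 genes of lowest p per pathway list, up to 3 markers per list that move with a member, and the most similar genes (named here by the first with a symbol); some more were added after their values were seen. Lists use the brightest probe of a gene. Results for some genes are not reported here.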

Additional observations from a re-analysis of the deposited data

Results flagged for a closer look

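In 3 of 26 groups of 4 mice, a single mouse stood apart by its gap to the next mouse relative to the range of the group. Chance gives this in about 1 group in 20. The groups share the same mice and several are probes of the same gene, so they are not independent of each other. For Ngfr, wildtype replicate 2 was at a log2 signal of 7.52 and the other wildtype mice were between 6.79 and 6.87. For the stop codon probe of truncated Ntrk3, α-Gal A(-/0) replicate 4 was at 11.53 and the others of its group were between 12.25 and 12.34. For the kinase probe of Ntrk3, α-Gal A(-/0) replicate 3 was at 10.82 and the others of its group were between 10.90 and 10.91.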

How the results depend on the processing

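Ngfr was higher in α-Gal A(-/0) mice under all 19 alternatives that gave it a value, by 0.59 to 1.02, and was called under 3 of them: intensity trend with robust variances (adjusted p = 0.0324), array weights (0.0212) and without wildtype replicate 2 (0.0229). The number of called member probes was therefore 1 in place of 0 under those settings, and 0 to 1 over the arrays left out in turn. Leaving out probes with an outlier spot removed the Ngfr probe. The methods' Welch test gave it an adjusted p of 0.363. Of all probes 301 were called, but 92 with the Welch test, 144 with slide row as a block, 493 with array weights and 183 to 258 with 1 array left out. The replicate numbers shared by the groups did not pair the mice (residual correlations of -0.09, 0.14, 0.01 and 0.15); with the replicate block 150 probes were called and Ngfr had an adjusted p of 0.0738.

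No other member probe was called under any of its 20 alternatives, and small differences changed sign. With the 75th percentile shift these were Ntrk2 of both forms (-0.0078), full-length Ntrk3 (-0.0085 and -0.017 for the kinase probe) and the brightest Sort1 probe (-0.018). With slide row as a block they were truncated Ntrk2 (-0.036), Ntrk2 of both forms (-0.0084), Bdnf (-0.035), Ntf3 (0.023) and the brightest Sort1 probe (-0.0012). With array weights they were the kinase probe (-0.000044) and the second truncated probe of Ntrk3 (-0.028) and Bdnf (-0.039). With 1 array left out, Bdnf ranged from -0.033 to 0.084, Ntf3 from -0.16 to 0.012, truncated Ntrk2 from -0.026 to 0.11, full-length Ntrk3 from -0.0062 to 0.086, its kinase probe from -0.016 to 0.034, the second truncated probe from -0.0029 to 0.13 and the Sort1 probe across an intron from -0.016 to 0.22. The cause was not tested. The brighter Sorl1 probe was called under 19 of 20 alternatives (not with the Welch test, 0.109), its other probe under 5 and Egr2 under 11.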
